A study of Mus musculus with 15 samples.

Results

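Gdpd3, Epb41l3, Tubb2b, Nrcam, Pdlim4, Slc15a2, Cpne8, Phlda3, Hhipl1 and Vmn2r82 are 10 autosomal genes whose microarray signal differed widely between Junb knockout and wild type macrophages of the mouse, both with and without lipopolysaccharide (LPS). They were chosen by their measured knockout minus wild type differences in both treatments, among 14192 genes tested, with no stated cut-off, so their genotype differences are given here as a description, with no test. Expression was measured in bone marrow-derived macrophages grown for one week in macrophage colony-stimulating factor (MCSF) on 15 single-colour Agilent arrays. Knockout cells had the genotype Junb-fl/fl Lyz2-Cre+/+ on a C57BL/6 background, which gave 3 arrays of cells given LPS at 100 ng/ml for 4 h and 4 arrays of untreated cells. Wild type cells were C57BL/6 and gave 4 arrays with the same LPS treatment and 4 of untreated cells. In knockout cells Cre sits in both copies of Lyz2, a lysozyme gene active in myeloid cells, and no Cre-bearing cells with intact Junb were analysed here. The replicates are separate wells, and no label ties them to separate mice, so the p-values measure the spread between wells, which may be technical.

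JUNB is a subunit of AP-1, a transcription factor made of JUN and FOS family proteins that binds the DNA word TGACTCA. Macrophages sense LPS, a cell wall component of Gram-negative bacteria, through Toll-like receptor 4, and AP-1 is among the factors switched on downstream. The 10 genes belong to no single pathway. Tubb2b, Epb41l3, Pdlim4 and Nrcam encode proteins of the cytoskeleton or its links to the membrane. Slc15a2 encodes a peptide transporter, Phlda3 a protein that keeps the kinase Akt from the membrane, and Gdpd3 and Cpne8 proteins that act on or bind phospholipids. Hhipl1 encodes a secreted relative of the hedgehog-binding protein Hhip, and Vmn2r82 a receptor of the vomeronasal organ.

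RefSeq promoter windows, running from 250 bases before to 50 bases after a gene's start on GRCm38.p6, were found for 9 of the 10 genes, with 11 windows in all because Epb41l3 has 3 starts. The 4 printed here belong to genes that the results turn on. Pdlim4 (chr11:54068968-54069267, minus strand) and Phlda3 (chr1:135765835-135766134, plus strand) were both higher in knockout cells and both fell with LPS. Gdpd3 (chr7:126766164-126766463, plus strand) had the largest genotype difference of the 10, and Slc15a2 (chr16:36784913-36785212, minus strand) was well above background in knockout cells alone. Capitals mark the CpG pairs.
Pdlim4: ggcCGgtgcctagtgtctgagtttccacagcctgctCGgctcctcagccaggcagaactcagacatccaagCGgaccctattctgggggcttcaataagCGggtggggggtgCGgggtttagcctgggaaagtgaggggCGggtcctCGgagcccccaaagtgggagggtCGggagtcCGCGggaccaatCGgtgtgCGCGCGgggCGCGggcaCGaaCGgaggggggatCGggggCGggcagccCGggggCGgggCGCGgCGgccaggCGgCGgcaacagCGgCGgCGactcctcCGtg
Phlda3: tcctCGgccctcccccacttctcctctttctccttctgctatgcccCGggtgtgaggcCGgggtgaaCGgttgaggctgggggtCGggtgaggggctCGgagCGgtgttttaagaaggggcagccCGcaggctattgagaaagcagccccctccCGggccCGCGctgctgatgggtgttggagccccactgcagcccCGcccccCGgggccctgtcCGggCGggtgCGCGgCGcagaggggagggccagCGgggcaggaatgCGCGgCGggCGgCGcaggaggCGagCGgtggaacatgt
Gdpd3: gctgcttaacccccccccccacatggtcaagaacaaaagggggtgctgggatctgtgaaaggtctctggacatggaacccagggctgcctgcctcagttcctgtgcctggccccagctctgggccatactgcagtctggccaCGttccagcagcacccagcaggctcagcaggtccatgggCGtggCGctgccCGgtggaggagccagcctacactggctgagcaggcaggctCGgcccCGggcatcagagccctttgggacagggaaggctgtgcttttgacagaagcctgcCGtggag
Slc15a2: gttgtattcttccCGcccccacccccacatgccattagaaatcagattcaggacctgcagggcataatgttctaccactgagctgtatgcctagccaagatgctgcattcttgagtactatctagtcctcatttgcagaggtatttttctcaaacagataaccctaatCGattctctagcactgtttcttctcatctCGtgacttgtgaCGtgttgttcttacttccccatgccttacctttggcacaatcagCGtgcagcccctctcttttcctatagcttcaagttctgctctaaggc

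These windows differ in base composition. Pdlim4 and Phlda3 are each 71.7% G or C, with 31 and 26 CpG pairs, whereas Gdpd3 is 64.3% G or C with 7 pairs and Slc15a2 46.3% with 5. Over all 32851 windows in the table the median was 52.7% G or C and 7 CpG pairs. The Nrcam window held 37 CpG pairs and the Cpne8 window 32, above the upper quartile of 20 over all windows, while Vmn2r82 held 4. All windows were searched on both strands for TGACTCA (AP-1), TGACGTCA (cyclic AMP response element) and GAGGAAGT (PU.1), and none of these words contains another. The words occur in 5.20%, 1.79% and 3.20% of all windows and in 0 of the 11 windows of these genes. This says only that these letters are absent from windows of 300 bases.

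Levels are log2 of the processed signal over the 75th percentile of its array, so that 0 is the 75th percentile and 1 unit is a doubling of signal. Signals below 0.0436 of the 75th percentile were raised to that floor, -4.52 on this scale, and levels at the floor have no order. The 75th percentile ranged from 481.8 to 1490.4 signal units over the arrays and 51.0% to 63.2% of spots were well above background. Junb itself had signals of -0.395 to 4.15 on the 7 knockout arrays, none well above background, and of 1291 to 9574 on the 8 wild type arrays. Lyz2, the gene that carries Cre, had signals of 868.7 to 3793 on knockout arrays and 345900 to 448200 on wild type arrays. Xist was well above background on 0 of the 7 knockout and all 8 wild type arrays, and the Y-linked genes Ddx3y and Eif2s3y on all 7 knockout and 0 of the 8 wild type arrays, so by these genes the cultures also differ in sex. Other Y-linked probes split less cleanly. Kdm5d was well above background on all 7 knockout and 5 of 8 wild type arrays, 1 Uty probe on all 7 and 6 of 8, and another Uty probe on 6 of 7 and 0 of 8. Slide 1 held the 7 knockout arrays and slide 2 the 8 wild type arrays, and on each slide untreated and LPS arrays sat on separate rows. Loss of Junb, Cre, loss of Lyz2, sex, slide and any other feature that separates the 2 sets of cells cannot be told apart in any genotype difference. The 11 macrophage markers with a probe were all well above background in each of the 4 groups.

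**Figure D1:**
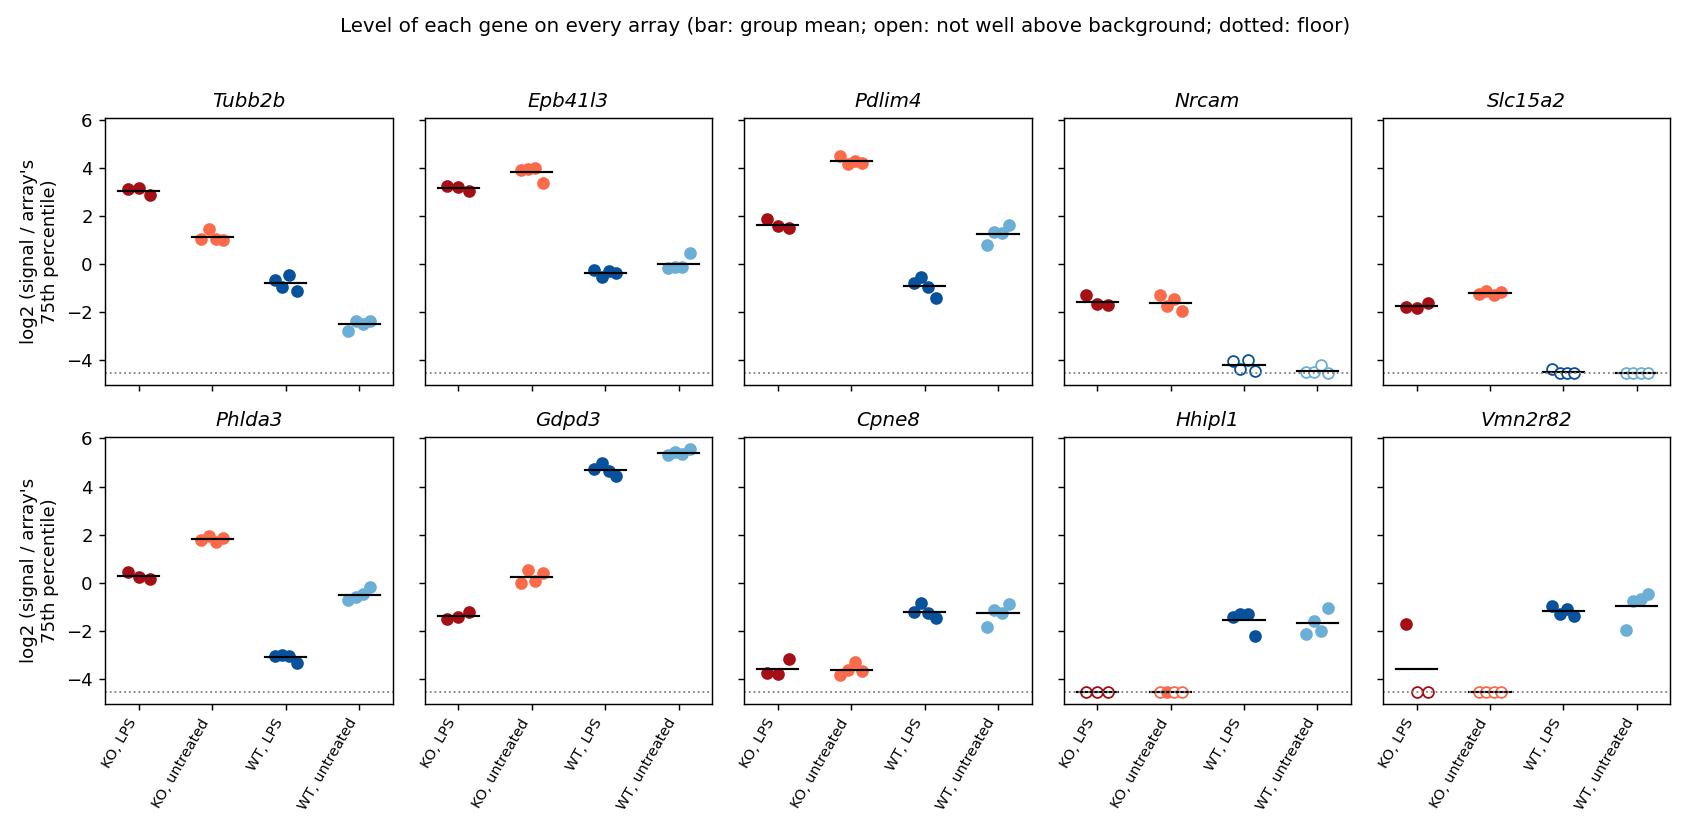
Level of each of the 10 genes (log2 of signal over the array's 75th percentile) on every array, in knockout cells with LPS, knockout cells untreated, wild type cells with LPS and wild type cells untreated. Points are arrays (n = 3, 4, 4 and 4), bars are group means, open points are not well above background and the dotted line is the floor at -4.52. Within a treatment the knockout arrays are the higher ones for 6 genes and the lower ones for 4.

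Among the genes of the cytoskeleton, Tubb2b, a beta-tubulin isotype best known from developing neurons, was higher in knockout cells and rose with LPS in both genotypes. Its levels, in order of replicate number, were 3.12, 3.17 and 2.87 in knockout cells with LPS and 1.04, 1.45, 1.04 and 0.99 in untreated knockout cells. Wild type levels were -0.65, -0.96, -0.44 and -1.11 with LPS and -2.78, -2.36, -2.48 and -2.37 untreated. No 2 groups overlapped, and untreated knockout cells stood above LPS-treated wild type cells. The knockout minus wild type difference was 3.84 ± 0.18 (SE; 14.3-fold) with LPS and 3.62 ± 0.16 (12.3-fold) untreated. The LPS response was 1.92 ± 0.18 in knockout cells (limma, Benjamini-Hochberg adjusted p = 3.61e-07) and 1.71 ± 0.16 in wild type cells (adjusted p = 4.85e-07), and every LPS array lay above every untreated array of its genotype.

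A second probe for Tubb2b showed the same order of groups at dimmer signal. It read -0.29, 0 and -0.21 in knockout cells with LPS and -1.92, -1.62, -1.76 and -1.83 in untreated knockout cells. It read -4.16, -3.93, -3.40 and -3.32 in wild type cells with LPS, with 2 of 4 arrays well above background, and in untreated wild type cells it was well above background on 0 of 4 arrays. Where no array of a group rises well above background, the fold given is taken against a detection limit. For each dim array it takes the weakest signal that still counted as well above background there, or the probe's own signal if stronger, and sets the bright group's mean level against the mean of these. The arrays' own limits can lie below the common floor, so such a fold can exceed the fitted fold, which is taken against the floor. It is not a lower bound. Probes brighter than this limit can still fail to count as well above background, and other settings gave smaller differences. By that measure this probe was 8.22-fold higher in untreated knockout than untreated wild type cells (mean -1.78 against a limit of -4.82), with a fitted fold of 6.53. Its LPS response in knockout cells was 1.62 ± 0.18 (adjusted p = 4.49e-06, over all probes). Its fitted LPS response in wild type cells was 0.79 ± 0.17 (adjusted p = 0.00115), with 2 of 4 LPS arrays and 0 of 4 untreated arrays well above background, so its size is not read.

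Epb41l3 encodes protein 4.1B, which ties membrane proteins to the spectrin and actin cytoskeleton. It was higher in knockout cells, with levels of 3.25, 3.19 and 3.05 with LPS and 3.91, 3.95, 4.01 and 3.36 untreated. Wild type cells read -0.25, -0.53, -0.28 and -0.38 with LPS and -0.16, -0.11, -0.12 and 0.44 untreated. The lowest knockout array lay 3.30 above the highest wild type array with LPS and 2.92 above it untreated. The genotype difference was 3.52 ± 0.18 (11.5-fold) with LPS and 3.79 ± 0.16 (13.9-fold) untreated. With LPS, Epb41l3 fell by 0.65 ± 0.18 in knockout cells (adjusted p = 0.00572). The LPS response in wild type cells was -0.38 ± 0.16 and missed the threshold (adjusted p = 0.0600), although the groups did not overlap. It passed after normexp background correction (-0.55, adjusted p = 0.0158), without untreated knockout replicate 4 (adjusted p = 0.0273) and without untreated wild type replicate 1 (adjusted p = 0.0477).

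Pdlim4, a PDZ and LIM domain protein that binds alpha-actinin on actin filaments, was higher in knockout cells and fell strongly with LPS. Its levels were 1.86, 1.56 and 1.497 in knockout cells with LPS and 4.49, 4.16, 4.29 and 4.18 in untreated knockout cells. Wild type cells read -0.78, -0.54, -0.97 and -1.41 with LPS and 0.80, 1.31, 1.31 and 1.64 untreated. Within a treatment the genotypes did not overlap, but knockout cells with LPS (mean 1.64 ± 0.20, SD, n = 3) overlapped untreated wild type cells (mean 1.26 ± 0.34, SD, n = 4). The genotype difference was 2.57 ± 0.21 (5.93-fold) with LPS and 3.02 ± 0.20 (8.08-fold) untreated. With LPS, Pdlim4 fell by 2.64 ± 0.21 in knockout cells (adjusted p = 1e-07) and fell by 2.19 ± 0.20 in wild type cells (adjusted p = 2.63e-07).

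Nrcam encodes a neuronal cell adhesion molecule of the L1 family, whose members bind ankyrins. It was measured in knockout cells at -1.30, -1.66 and -1.72 with LPS and at -1.27, -1.75, -1.46 and -1.97 untreated, a signal of 153.8 to 443 units. Wild type cells gave signals of 22.3 to 66.5, well above background on 0 of the 8 arrays. Set against the detection limit, knockout cells were 6.25-fold higher with LPS and 7.28-fold higher untreated. Their means were -1.56 and -1.61, and the limits in wild type cells were -4.20 and -4.48. Other settings gave log2 differences as small as 1.605 with LPS and 1.86 untreated. The fitted folds, with 1 untreated wild type array raised to the floor, were 6.25 and 7.04. The knockout arrays with and without LPS overlapped, and the LPS response there was 0.053 ± 0.18 (adjusted p = 0.817). No LPS response can be read in wild type cells, where both groups are below background. Of 10 neuronal and glial markers, Gfap, Map2, Rbfox3, Sox10, Stmn2 and Tubb3 were well above background on 0 of the 7 knockout arrays, and the summed signal of the list, in units of the 75th percentile, was 1.35 to 4.09 in knockout cells with LPS, 2.67 to 3.90 in untreated knockout cells, 0.534 to 4.73 in wild type cells with LPS and 1.44 to 22.8 in untreated wild type cells. None of the 4 markers tested was called higher in knockout cells in either treatment.

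Slc15a2 encodes the transporter PEPT2, which carries dipeptides and tripeptides with protons into cells, bacterial ones included. In knockout cells it stood at -1.78, -1.84 and -1.62 with LPS and at -1.24, -1.13, -1.28 and -1.17 untreated. In wild type cells the signal was 14.7 to 37.2 with LPS and 7.57 to 13.5 untreated, with 0 of 8 arrays well above background and 7 of them at the floor. Set against the detection limit, Slc15a2 was 7.32-fold higher in knockout cells with LPS and 20.1-fold higher untreated. Knockout means were -1.75 and -1.21, and the limits in wild type cells were -4.62 and -5.53. Other settings gave log2 differences as small as 1.68 with LPS and 2.74 untreated. Against the common floor the fitted folds were 6.65 and 9.93. Slc15a2 fell with LPS in knockout cells, by -0.54 ± 0.089 (adjusted p = 0.000119), without overlap between the treatments. That fall was -0.20 in the series' deposited value table (adjusted p = 0.776), where the entry of untreated knockout replicate 2 lies apart from the other 3.

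Phlda3 is a target gene of the tumour suppressor p53, and its protein competes with Akt for membrane lipids. It was higher in knockout cells and fell with LPS in both genotypes. The levels in knockout cells were 0.46, 0.24 and 0.18 with LPS and 1.79, 1.95, 1.70 and 1.86 untreated. Its wild type levels were -3.04, -3.01, -3.04 and -3.32 with LPS and -0.73, -0.60, -0.47 and -0.19 untreated. The 4 groups were fully separate, in the order untreated knockout, LPS-treated knockout, untreated wild type and LPS-treated wild type. The genotype difference was 3.39 ± 0.14 (10.5-fold) with LPS and 2.32 ± 0.12 (5.0-fold) untreated, the smallest of the 20 differences that define these genes. With LPS, Phlda3 fell by 1.53 ± 0.14 in knockout cells (adjusted p = 2.7e-07) and fell by 2.604 ± 0.12 in wild type cells (adjusted p = 3.97e-10).

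Gdpd3, an enzyme that releases lysophosphatidic acid from lysophospholipids, was far lower in knockout cells. Its levels in knockout cells were -1.50, -1.40 and -1.23 with LPS and -0.013, 0.54, 0.092 and 0.40 untreated. Wild type cells read 4.74, 4.97, 4.64 and 4.45 with LPS and 5.32, 5.43, 5.35 and 5.55 untreated. The gap between the nearest knockout and wild type arrays was 5.68 with LPS and 4.78 untreated, the widest of the 10 genes. The genotype difference was -6.08 ± 0.15 (67.5-fold lower in knockout cells) with LPS and -5.16 ± 0.14 (35.8-fold lower) untreated. With LPS, Gdpd3 fell in both genotypes without overlap. It fell by 1.63 ± 0.15 in knockout cells (adjusted p = 4.61e-07) and fell by 0.72 ± 0.14 in wild type cells (adjusted p = 0.000497).

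Cpne8, a copine, belongs to a family of proteins that bind phospholipids when calcium is present. It was lower in knockout cells, with -3.74, -3.77 and -3.18 with LPS and -3.84, -3.63, -3.28 and -3.66 untreated, close to the floor but well above background on all 7 arrays. Wild type cells read -1.19, -0.85, -1.27 and -1.46 with LPS and -1.82, -1.13, -1.24 and -0.90 untreated. The treatments overlapped in each genotype and the genotypes did not overlap in either treatment. The genotype difference was -2.37 ± 0.22 (5.17-fold lower in knockout cells) with LPS and -2.33 ± 0.21 (5.03-fold lower) untreated. The LPS response was 0.041 ± 0.23 in knockout cells (adjusted p = 0.891) and 0.079 ± 0.21 in wild type cells (adjusted p = 0.775). The wild type response passed after normexp (0.55, adjusted p = 0.00787) and in the deposited value table (0.64, adjusted p = 0.0169).

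Hhipl1 was at the floor on all 7 knockout arrays, with signals of 17.4 to 21.7 with LPS and 7.26 to 41.4 untreated, and only 1 untreated array was well above background. Hhipl1 read -1.40, -1.29, -1.31 and -2.22 in wild type cells with LPS and -2.11, -1.58, -1.98 and -1.04 in untreated wild type cells, signals of 103.3 to 427.8. Knockout cells with LPS were 10.3-fold lower by the detection limit, from a limit of -4.92 in knockout and a mean of -1.56 in wild type cells. The fitted fold against the floor was 7.79, and other settings gave a log2 difference as small as 1.70 in size. Untreated, the fitted difference was -2.84 ± 0.23, whose size depends on the floor. The LPS response in wild type cells was 0.12 ± 0.23 (adjusted p = 0.682), and the treatments overlapped. A second probe for Hhipl1 was well above background on 0 of the 15 arrays, with signals of 6.53 to 30.7, so the difference rests on 1 probe.

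Vmn2r82 likewise rests on 1 probe, as does every other named gene except Tubb2b. Vomeronasal type 2 receptors form a large family of close copies, and whether the probe also reads relatives was not tested. Signals in knockout cells were 224.9, 18 and 24.1 with LPS and 7.32 to 27.6 untreated, and knockout LPS replicate 2 was the only one of the 7 arrays well above background. Wild type levels were -0.96, -1.31, -1.08 and -1.39 with LPS and -1.96, -0.76, -0.69 and -0.45 untreated. Untreated knockout cells were 21.9-fold lower by the detection limit, from a limit of -5.41 in knockout and a mean of -0.96 in wild type cells. The fitted fold against the floor was 11.7, and other settings gave a log2 difference as small as 2.46 in size. With LPS the difference was -2.40 ± 0.55, and -3.33 without knockout LPS replicate 2, which at -1.72 lay only 0.33 below the lowest wild type array. The deposited value table does not show that bright array. It lists knockout LPS replicate 2 at 5.71 (log2), beside 5.63 and 5.49 on the other knockout LPS arrays. The LPS response in wild type cells was -0.22 ± 0.51 (adjusted p = 0.740).

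**Figure D2:**
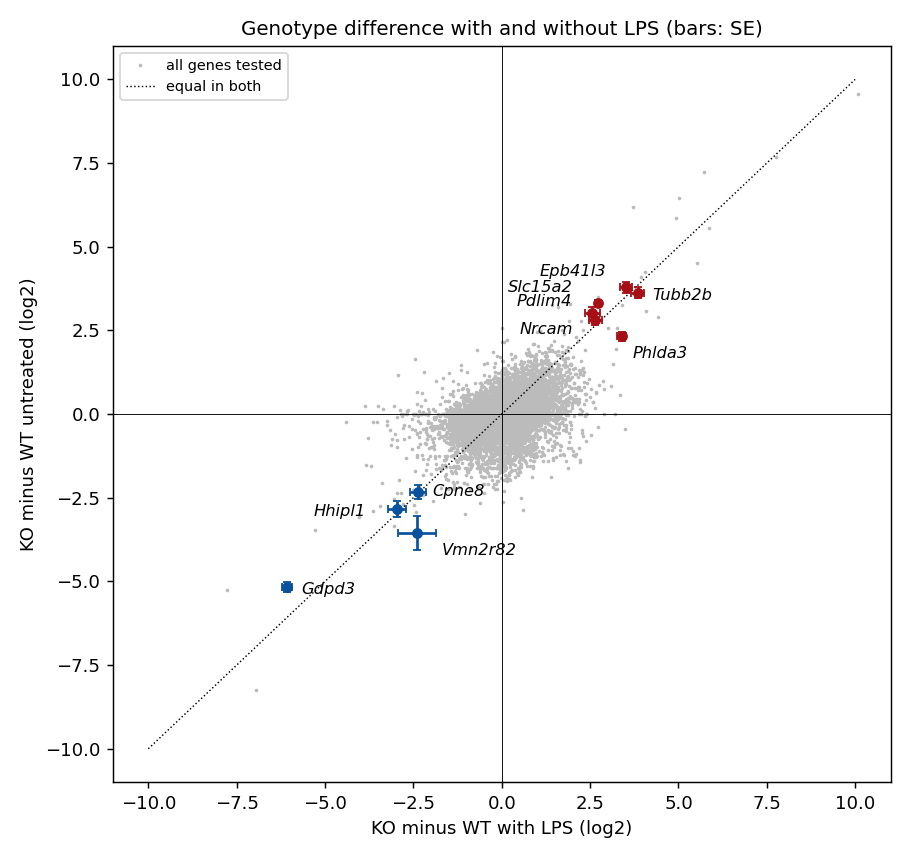
Knockout minus wild type difference with LPS (x axis, log2) against the same difference untreated (y axis, log2) for all 14192 genes tested, with the 10 named genes in colour and their standard errors. The dotted line marks equal differences, and the named genes lie on both sides of it, Phlda3 at 3.39 with LPS and 2.32 untreated and Gdpd3 at -6.08 with LPS and -5.16 untreated.

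All 10 genes passed the filter on dim probes. As the choice of genes fixes, 6 of 10 were higher and 4 lower in knockout cells in each treatment, so nothing is read from that count. Over all genes 13.6% were called higher and 17.1% lower with LPS (30.8% either way), and 11.9% higher and 5.83% lower untreated (17.7% either way). Among all genes, 784 (5.52%) were called higher in knockout cells in both treatments and 494 (3.48%) lower in both. Differences in 1 direction of at least 2.32, the smallest of the 10, were found in both treatments for 43 genes (0.303%), of which 33 are other genes. By the smaller of its 2 differences Gdpd3 ranked 7 among all genes, after Eif2s3y, Ddx3y, Lyz2, 5830417I10Rik, Trim12a and Junb. Tubb2b ranked 14 and Epb41l3 15. Hhipl1, Slc15a2, Nrcam, Pdlim4 and Vmn2r82 ranked 24, 27, 30, 34 and 39, and Cpne8 and Phlda3 came last at 42 and 43. Just ahead of them at 41 stood Ifit1bl1, with a smaller difference of 2.35 against 2.33 for Cpne8. The 43 genes included 6 of 11 tested on chromosome Y, and 6 of 1197 on chromosome 7, where Gdpd3 lies. The 10 named genes sit on 9 chromosomes, with only Nrcam and Hhipl1 sharing one, chromosome 12.

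The LPS responses lie within a slide and were not used to choose the genes. In knockout cells 1 of 10 rose (Tubb2b), 5 fell (Gdpd3, Epb41l3, Pdlim4, Slc15a2 and Phlda3) and 4 did not pass, against 32.5% of all genes called higher and 27.5% lower (59.9% either way). Among wild type cells 1 rose (Tubb2b), 3 fell (Gdpd3, Pdlim4 and Phlda3) and 6 did not pass, against 34.9% higher and 25.5% lower (60.5% either way). Rows and treatment cannot be told apart in these comparisons. The median LPS response of the 10 was -0.27 in knockout cells and -0.091 in wild type cells, against 0.19 and 0.14 over all genes. The floor bears on these counts, since Hhipl1 and Vmn2r82 in knockout cells and Nrcam and Slc15a2 in wild type cells had too few arrays above background for a response. Scaling bears on the medians of all genes, which were -0.096 in knockout and -0.13 in wild type cells after quantile normalisation. That setting gave 37.0% of calls higher in knockout and 41.6% in wild type cells, in place of 54.2% and 57.8%, while 6 of the 10 genes were still called in knockout and 4 in wild type cells.

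**Figure D3:**
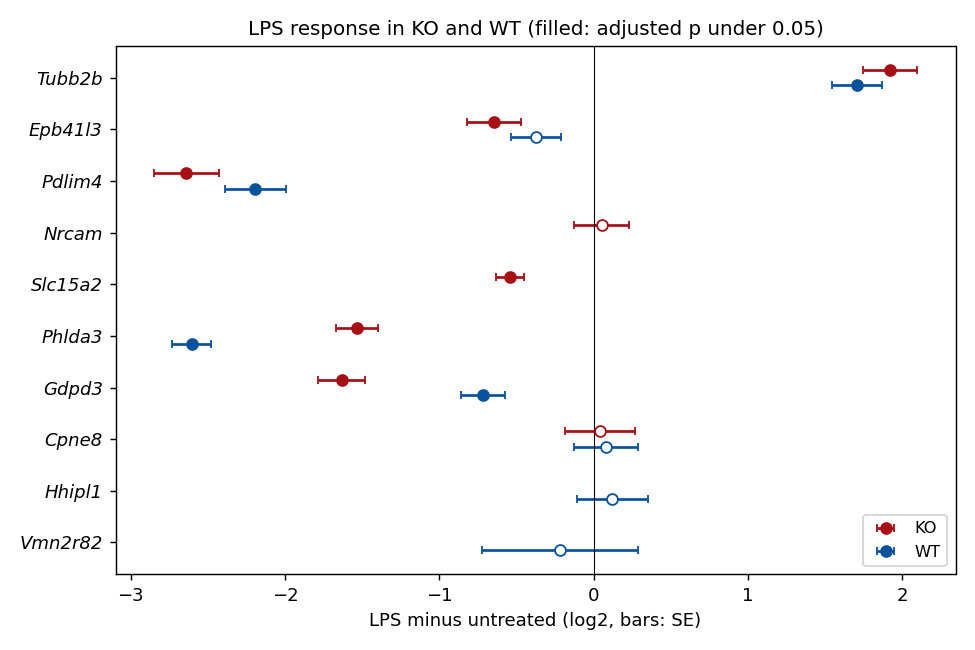
LPS minus untreated (log2, bars are SE) for each of the 10 genes, knockout in red above wild type in blue. Filled points passed an adjusted p of 0.05. Responses are left out where at most 1 array was well above background over both treatments. Pdlim4, Phlda3 and Gdpd3 fell in both genotypes and Tubb2b rose in both.

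The genotype difference kept its direction under LPS for each gene, which the choice fixes, but its size was not equal for all. The difference of the LPS responses, knockout minus wild type, is the difference of the same 2 contrasts, so it is given with its SE and no test. It was 1.07 ± 0.18 for Phlda3, -0.91 ± 0.21 for Gdpd3, -0.58 ± 0.12 for Slc15a2 and -0.45 ± 0.29 for Pdlim4. In this fit the fall with LPS was smaller in knockout than in wild type cells for Phlda3 and larger for Gdpd3. The value of -0.58 for Slc15a2 compares a measured fall with a group at the floor. For Vmn2r82 it was 1.15 ± 0.74, which rests on knockout LPS replicate 2. For Tubb2b, Epb41l3, Nrcam, Cpne8 and Hhipl1 it lay between -0.27 and 0.22, with an SE of 0.24 to 0.34. That range holds for this fit and these probes. The second Tubb2b probe gave 0.83 ± 0.24, and alternative settings reached 1.44 for Tubb2b, -0.68 for Epb41l3 and -0.77 for Cpne8. The median of the 10 was -0.15, against -0.062 over all genes. For Gdpd3 the value was -0.38 in the deposited value table and -0.31 after quantile normalisation, and for Phlda3 it was 0.50 after normexp. After quantile normalisation the knockout and wild type responses of Gdpd3 were -1.73 and -1.42.

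Over the 15 arrays the genes fell into a few patterns, described by Pearson correlations of log2 levels. The arrays form 4 groups, so the genotype gap enters every value, and no test is attached. Epb41l3 and Slc15a2 correlated at 0.99, Nrcam and Slc15a2 at 0.98, and Cpne8 and Hhipl1 at 0.98. Pdlim4 and Phlda3, which both fell with LPS, correlated at 0.97. Tubb2b, which rose with LPS, correlated with those at only 0.41 and 0.47. The other genes most like each one were named by the highest correlations. Tnfrsf26 and Tnfrsf23, neighbouring tumour necrosis factor receptor genes, were at 0.999 with Slc15a2. Tnfrsf23 was also closest to Epb41l3, at 0.992, followed by 5830417I10Rik at 0.991. In wild type cells Tnfrsf23 and 5830417I10Rik had means at the floor, -4.52, in both treatments. Tnfrsf26 had wild type means of -4.33 with LPS and -4.52 untreated, and Slc15a2 too was at or near the floor there. These values thus set bright knockout arrays against wild type levels that the floor made alike. For Nrcam these were Cep57 (0.989) and the tetraspanin gene Cd81 (0.988), and for Tubb2b Plppr3 and Trim12a, both at 0.981. Tnfrsf26, Tnfrsf23, Cd81 and Trim12a all lie on chromosome 7 and are among the 43 genes with differences as large.

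For Pdlim4 the closest genes were Lbx2 (0.990) and Dmpk (0.986), and for Phlda3 Ddx43 (0.987) and Slx1b (0.982). Gdpd3 was closest to Gdf3, a growth factor gene of the transforming growth factor beta family, at 0.995, and to the aspartic protease gene Napsa at 0.982. Gdf3 had means of -0.74 in knockout cells with LPS, 0.007 in untreated knockout cells, 2.32 in wild type cells with LPS and 2.56 in untreated wild type cells, the same order of groups as Gdpd3. Zfp462 was closest to both Cpne8 (0.974) and Hhipl1 (0.979), and stood at the floor on knockout arrays with means of -1.73 in wild type cells with LPS and -1.82 in untreated wild type cells. The second gene was Cap1 (0.971) for Cpne8 and Lims2 (0.978) for Hhipl1. For Vmn2r82 the values were lower, with Eps8l1 at 0.953 and Cpe at 0.935.

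Each list of relatives held genes that differed by less than its named gene. Since the named genes were chosen for large differences, nothing is read from that. Shares called over all genes were 13.6% higher and 17.1% lower with LPS, and 11.9% higher and 5.83% lower untreated. The counts for these short lists are a description beside those shares. In the list of glycerophosphodiester phosphodiesterases, the family of Gdpd3, 5 were tested. With LPS 2 were called higher and 1 lower in knockout cells, and untreated 2 were higher and 2 lower. Gdpd2 was higher by 2.09 ± 0.24 with LPS and 1.38 ± 0.22 untreated (adjusted p = 2.26e-05 and 0.000585), and Gpcpd1, a glycerophosphocholine phosphodiesterase, by 1.58 ± 0.42 and 1.36 ± 0.39 (adjusted p = 0.0116 and 0.0267). Both differences ran opposite to that of Gdpd3. Of 13 tubulins 1 was higher and 4 lower with LPS, and 1 higher and 2 lower untreated. The one higher in both was Tubb2a, the close paralog beside Tubb2b, by 0.73 ± 0.16 with LPS and 0.67 ± 0.15 untreated (adjusted p = 0.00434 and 0.00751), and whether its probe shares transcripts with Tubb2b was not tested. Tubg1, a gamma-tubulin, was lower by -0.66 ± 0.17 and -0.57 ± 0.15 (adjusted p = 0.00877 and 0.0214). With normexp background correction in place of the processed signal, 0 genes of all these lists were called lower untreated, against 7 here, so the untreated call of Tubg1 was lost there.

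No gene of the other cytoskeletal lists was called in 1 direction in both treatments, where 5.52% of all genes were higher and 3.48% lower in both. The counts below stand beside 13.6% of all genes called higher and 17.1% lower with LPS, and 11.9% and 5.83% untreated. Of 4 protein 4.1 genes 1 was called higher with LPS and 0 were called untreated. Of 7 PDZ and LIM domain or alpha-actinin genes, 3 were lower in knockout cells with LPS and 1 was higher untreated. Of 2 measured L1 family or ankyrin genes 1 was lower with LPS. Of 5 genes for peptide transporters and NOD sensing of bacterial peptides, 2 were lower with LPS and 1 untreated, among them Ripk2, the kinase that acts below NOD1 and NOD2, by -0.47 ± 0.14 with LPS and -0.43 ± 0.13 untreated (adjusted p = 0.0235 and 0.0387). Its untreated call was also lost after normexp. Of 5 copines 1 was lower with LPS and 0 were called untreated.

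The list of p53 target genes, to which Phlda3 belongs, had 22 other members tested. With LPS 7 were higher and 2 lower in knockout cells, and untreated 8 were higher and 2 lower, where 30.8% of all genes were called with LPS and 17.7% untreated. The list medians were 0.12 and 0.27, against 0.010 and 0.044 over all genes. Gdf15, a stress-induced cytokine, was higher by 2.36 ± 0.16 with LPS and 1.91 ± 0.15 untreated (adjusted p = 2.6e-07 and 1.54e-06). Zmat3, an RNA-binding protein gene, was higher by 1.12 ± 0.18 and 1.26 ± 0.17 (adjusted p = 0.000463 and 0.000163), and the receptor gene Eda2r by 1.505 ± 0.27 and 0.88 ± 0.25 (adjusted p = 0.000998 and 0.0270). Also called in both were Ccng1, a cyclin G gene, higher by 0.87 ± 0.14 and 0.74 ± 0.14 (adjusted p = 0.000545 and 0.0017), and Mdm2, the inhibitor of p53, lower by -0.29 ± 0.094 and -0.35 ± 0.087 (adjusted p = 0.0332 and 0.0131). The Mdm2 call untreated was lost after normexp. The 1 other PHLDA gene measured, Phlda1, was not called in either comparison. Of 5 hedgehog pathway and Hhip family genes tested 0 were called with LPS and 1 was higher untreated. Of 26 other vomeronasal type 2 receptors tested, out of 89 with a probe, 2 were higher and 2 lower with LPS, and 2 higher untreated. Vmn2r55 was higher in both, by 1.96 ± 0.27 with LPS and 1.48 ± 0.25 untreated (adjusted p = 0.000126 and 0.001).

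**Figure D4:**
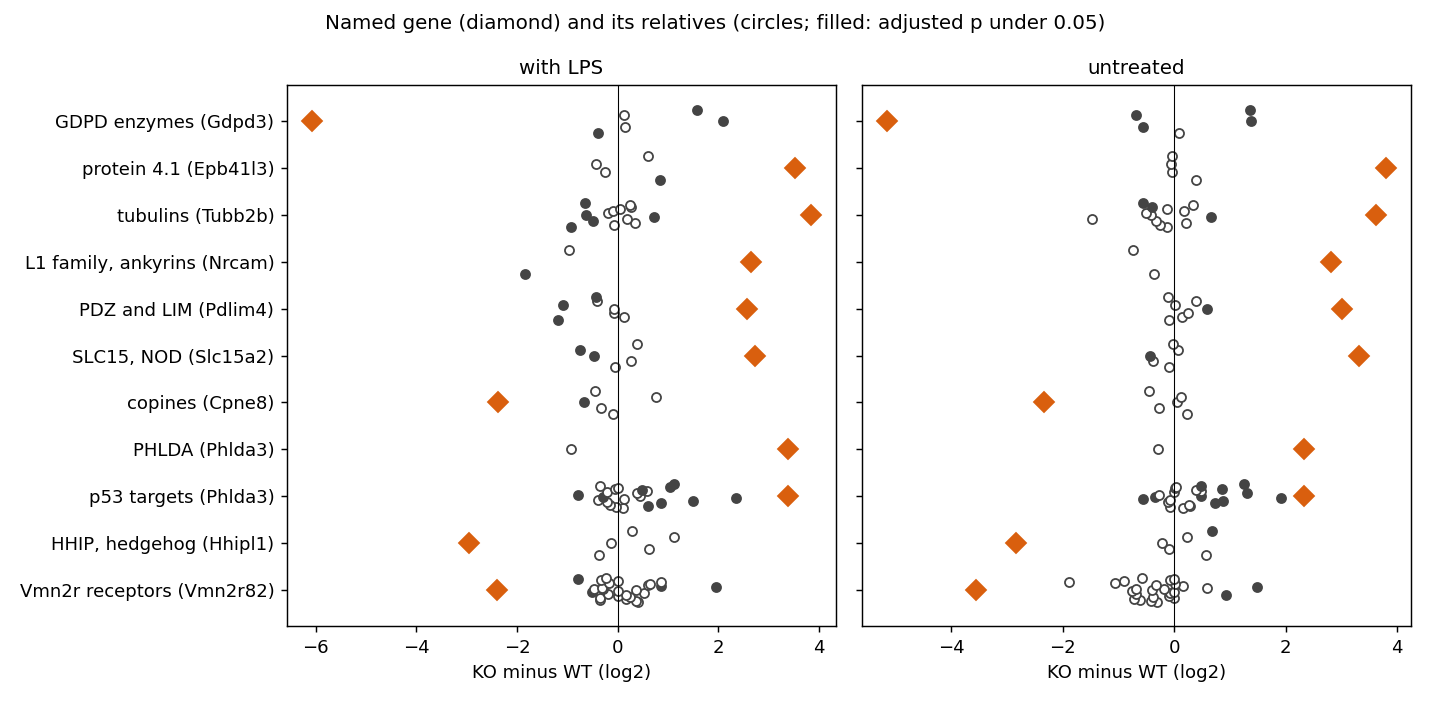
Knockout minus wild type difference (log2) with LPS and untreated for each named gene (diamond) and the tested members of its family or pathway list (circles, filled where the adjusted p was under 0.05). No relative lies as far from 0 as its named gene in either panel, but the named genes were chosen for large differences, so nothing is read from that. Gdf15 of the p53 list stands at 2.36 with LPS and 1.91 untreated, and Phlda3 at 3.39 and 2.32.

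Genes that lie beside the named genes differed by smaller amounts. The named genes were chosen for large differences, and only 0.303% of all genes differed as much in both treatments. Nothing is therefore read from the smaller size of the neighbours. The 2 nearest tested genes on either side gave 40 neighbours, whose differences between genotypes reached at most 1.64 with LPS and 1.43 untreated. Over all genes 5.52% were called higher and 3.48% lower in both treatments. Of the 40 neighbours 4 were called in the direction of the named gene in both treatments, namely Tubb2a beside Tubb2b, Pnpla8 beside Nrcam (0.55 ± 0.16 with LPS and 0.50 ± 0.14 untreated), P4ha2 beside Pdlim4 (0.50 ± 0.13 and 0.98 ± 0.12) and Lad1 beside Phlda3 (1.64 ± 0.18 and 0.53 ± 0.16). In the opposite direction 3 were called in both. They are Tbx6 beside Gdpd3, higher by 0.94 ± 0.16 and 0.63 ± 0.15, Eaf2 beside Slc15a2, lower by -0.97 ± 0.14 and -0.56 ± 0.13, and Cyp46a1 beside Hhipl1, higher by 0.88 ± 0.15 and 0.90 ± 0.14.

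**Figure D5:**
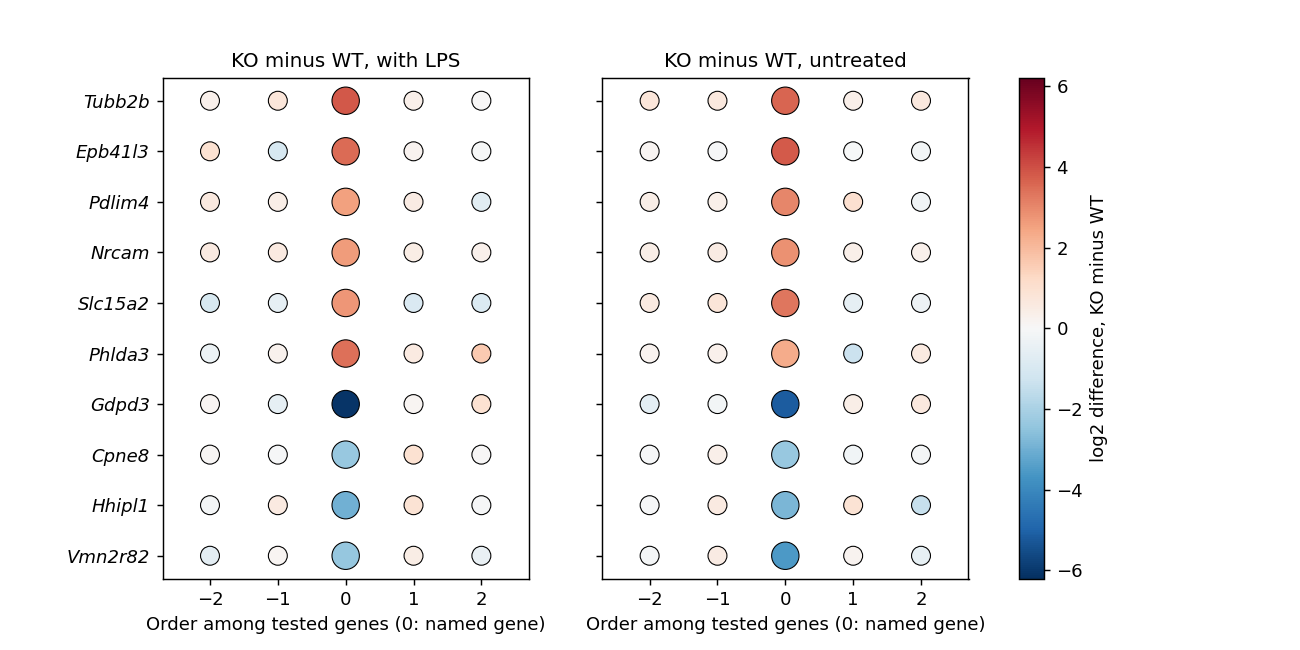
Knockout minus wild type difference (log2, colour scale) with LPS and untreated for each named gene at position 0 and its 2 nearest tested neighbours on either side in chromosome order. The named genes, chosen for their size, reach between 2.32 and 6.08 and the neighbours at most 1.64, so nothing is read from that gap.

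Markers of several other cell types differed with genotype, those of neutrophils in the same direction in both treatments. Of 9 neutrophil markers with a probe, 5 were tested, and 3 were lower in knockout cells in each treatment. Over all genes 17.1% were called lower with LPS and 5.83% untreated. The summed signal of the list was 18.3 to 20.9 in knockout cells with LPS, 5.78 to 6.64 in untreated knockout cells, 48.5 to 65.0 in wild type cells with LPS and 7.01 to 12.0 in untreated wild type cells. Cxcr2 and Mpo, which define neutrophils and their precursors, were well above background on no array, and S100a9 on none of the knockout arrays. Stromal markers summed to 32.7 to 35.0 in knockout cells with LPS and 7.55 to 8.48 in untreated knockout cells, against 19.2 to 24.0 in wild type cells with LPS and 9.72 to 12.0 in untreated wild type cells. With LPS, mast cell markers summed to 18.5 to 23.4 in knockout and 30.1 to 35.0 in wild type cells. Endothelial markers then summed to 2.66 to 3.37 and 3.93 to 4.67, and B cell markers to 1.53 to 4.91 and 0.684 to 1.48. Untreated, these sums overlapped between genotypes, as did those of dendritic, T and NK and erythroid cells in both treatments. In the 7 lists for dendritic, B, T and NK, erythroid, mast, stromal and endothelial cells, 2 to 8 genes were tested. Untreated, 2 of 4 erythroid genes were called higher (11.9% of all genes), and 2 of 5 endothelial and 2 of 8 stromal genes lower (5.83%). With LPS 2 of 8 stromal genes were lower (17.1%). Every other count in 1 direction was at most 1 per list. The endothelial gene Vwf was lower in both treatments, by -1.46 ± 0.16 with LPS and -0.91 ± 0.15 untreated. Lists this short give no firm share. Macrophage markers summed to 1760 to 2290 in knockout cells with LPS, 813 to 1790 in untreated knockout cells, 1540 to 2210 in wild type cells with LPS and 1230 to 1500 in untreated wild type cells. Of the 11 tested, 1 was called higher and 2 lower in knockout cells with LPS, and 2 higher and 1 lower untreated. Mrc1 was higher in both, by 1.28 ± 0.15 with LPS and 1.75 ± 0.14 untreated. The part of these markers in the differences of the 10 genes was not tested, and fewer cells of a type and less RNA per cell cannot be told apart.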

How the data were processed

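Amplified RNA labelled with Cy3 was hybridised, per the labels' protocols. Agilent Feature Extraction 10.7.3.1 read the spots, and the processed signal is a background-subtracted intensity on a linear scale, per the file headers. The deposited value table holds log2 values, whose normalisation and background step are not given in the sources used here. It has 50378 rows, lacks Nrcam, and its column medians are 6.25 to 6.27.

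Control spots were left out and 4827 spots flagged as non-uniform or as population outliers were set to missing. Processed signals were divided by the array's 75th percentile, raised to a common floor and put on a log2 scale. Of 55681 probes, 26582 were named by RefSeq accession through the gene list of assembly GRCm38.p6, used for names and gene order, since the probe design refers to mm9. A probe was kept if 3 or more arrays of any 1 group put it well above background (32507), and each gene took its brightest kept probe. limma 3.58.1 in R 4.3.3 fitted 4 group means over all 15 arrays, with p-values adjusted by Benjamini-Hochberg across the genes at a threshold of 0.05 and the package data.table (version 1.17.8) for reading. The number of arrays limits the precision.

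The 10 genes and all lists were chosen with earlier results of these data known. Other genes named are, from each family list, at most 3 called in both genotype comparisons in 1 direction, the 2 best correlated with each gene, and neighbours called in both. Ccng1, Mdm2, genes named by rank among all 43 and the neighbours called the opposite way were chosen after their values were seen. Alternatives were quantile normalisation, normexp (offset 50) on the median spot signal, other filters, a lower floor, the value table, the probe with the largest variance, a replicate block and leaving out each array.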

Additional observations from a re-analysis of the deposited data

Results flagged for a closer look

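In 5 of 25 groups of 4 arrays that could be tested, the highest or lowest level of a named gene lay farther from the rest than Dixon's critical value for groups of 4 allows, and chance flags about 1 in 20 groups. Epb41l3 stood apart on untreated knockout replicate 4, at 3.36 against 3.91 to 4.01 on the other arrays, and on untreated wild type replicate 4, at 0.44 against -0.16 to -0.11. Tubb2b read 1.45 on untreated knockout replicate 2 against 0.99 to 1.04. Phlda3 read -3.32 on wild type LPS replicate 4 against -3.04 to -3.01, and Hhipl1 read -2.22 there against -1.40 to -1.29. Each of these gaps was smaller than the difference between the genotypes in the same treatment.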

How the results depend on the processing

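No genotype difference or LPS response of the 10 genes changed sign among those called. The 10 genes were chosen by their genotype differences on these arrays, so how often they stay called describes the settings and gives those differences no support. They stayed called in both genotype comparisons under each alternative on the scanner files, and whichever array was left out. In the value table, which holds 9 of them, 9 were called with LPS and 8 untreated, where Tubb2b did not pass (2.12, adjusted p = 0.127; its LPS response in wild type cells 1.44, adjusted p = 0.153). The untreated difference was 1.06 to 2.51 in size for Cpne8, 2.12 to 3.67 for Tubb2b, 1.96 to 3.88 for Hhipl1, 2.74 to 5.22 for Slc15a2 and 2.46 to 5.24 for Vmn2r82 over 23 settings. Under normexp, 7 of the 10 genes responded to LPS in wild type cells in place of 4, and 1 in place of 2 had responses differing by at least 1. Among all genes the value table called 1197 untreated (2515 as reported), 2728 with LPS (4365) and 568 for the difference of the responses (1427, and 792 under normexp). Family genes called untreated numbered 14 under normexp (14 higher and 0 lower, against 15 and 7) and 13 in the value table, against 22. Leaving out 1 array gave 13 to 22 of these (13 without untreated knockout replicate 1), 2867 to 4957 genes with LPS and 931 to 1932 for the difference (2867 and 931 without knockout LPS replicate 3). The count of differing responses of at least 1 was then 0 to 3, with 0 without knockout LPS replicate 2 or untreated wild type replicate 4 and 1 without wild type LPS replicate 4. The causes were not tested. Whether replicate numbers pair the samples was left unsettled. Correlations of deviations were -0.54 to 0.56 for samples of the same number (median 0.11, 11 of 21 pairs over 0.1). For samples of different numbers they were -0.64 to 0.66 (median -0.005, 23 of 63 pairs over 0.1). With the replicate block all 10 genes stayed called, 6 responded to LPS in knockout and 4 in wild type cells, and 3990 genes in all were called with LPS. Slide as a block was not possible, since each slide holds 1 genotype.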

Other observations

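In the deposited value table, single entries of the named genes lay apart from their group while the scanner signal did not. For Tubb2b, untreated knockout replicate 3 is listed at 6.22 (log2) against 10.6 to 11.1 on the other 3 arrays, where its processed signal was 2376 against 1262 to 4068. For Slc15a2, untreated knockout replicate 2 is listed at 6.94, with a processed signal of 683.4, the highest of its group. Wild type LPS replicate 3 is listed at 7.48 for Slc15a2, against 5.13 to 5.86 on the other wild type LPS arrays, with a processed signal of 36.1. The second Hhipl1 probe is also listed at 7.48 on that array, with a processed signal of 19.8. The reverse held for Vmn2r82 on knockout LPS replicate 2, listed at 5.71 beside 5.63 and 5.49, with a processed signal of 224.9 against 18 and 24.1. The causes of these discrepancies were not tested.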
